A study of Mus musculus with 6 samples.

Results

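The insulin-like growth factor (IGF) system was followed through 10 genes: the ligand gene Igf1, the receptor genes Igf1r and Igf2r, the binding protein genes Igfbp2, Igfbp3, Igfbp4, Igfbp5, Igfbp6 and Igfbp7, and the related gene Kazald1. Their members were taken by symbol, as every array probe whose RefSeq accession belongs to one of the 10 genes. This gave 14 of the 55681 distinct probes, for 10 of 20887 named genes. All 14 passed the filter on dim probes, which 29003 probes and 14586 named genes passed. The set was chosen on measured values in that the log2 difference between mutant and wildtype pools was already known, so this difference is given for these genes as a description. Where a member is named as called, this says only on which side of the threshold of the fit over all probes (adjusted p under 0.05) it lay, and nothing rests on it.

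In this system IGF1 and IGF2 bind the receptor tyrosine kinase encoded by Igf1r, which signals through the PI3K and MAPK pathways to growth and survival. The product of Igf2r, the mannose-6-phosphate receptor, takes up IGF2 for breakdown in lysosomes and does not signal as a kinase. The IGFBP proteins hold IGFs outside cells, and proteases such as pappalysins release the ligand by cutting them. In the developing kidney IGFs take part in the growth of nephrons and of the branching ureteric bud, the outgrowth that forms the collecting ducts.

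The arrays measured RNA of 6 pools of ureteric bud-derived cells from C57BL/6 mice at postnatal day 1. The 3 WT pools came from Hoxb7cre+; R26RtdTomato; Bdkrb2+/+ kidneys and the 3 MUT pools from Hoxb7cre+; R26RtdTomato; Bdkrb2f/f kidneys, so the Cre driver and the reporter were carried by both groups. All kidneys were salt-stressed, and cells were sorted for GFP and tdTomato. Deletion of Bdkrb2, the bradykinin B2 receptor gene, was limited to cells in which the Hoxb7 driver acts, and how many mice made up a pool is not stated in the sources. RNA of each pool carried Cy5, and RNA of WT pool 1 carried Cy3 on every array, so every value below is a log2 ratio to WT pool 1, and the array of WT pool 1 set that RNA against itself.

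Each array had 27022 to 31314 probes well above background in Cy5, and precision is limited by there being 6 arrays. The single Bdkrb2 probe never stood well above background, and its log2 ratios ranged from -0.16 to 0.12, so it does not check the labels. All 12 listed markers of the ureteric trunk were well above background on every array, and all 12 fell in MUT pools. The listed markers of renal stroma, endothelium, podocytes and leukocytes were also well above background on every array. Their presence therefore does not check the labelled cell type. WT pools 2 and 3 lay in row 2 of the slide and the 4 other arrays in row 1. Differences are relative to the typical probe. Setting each array to its 10 spike-in control probes moved the median of all probes by 0.98, and median centring without loess moved it by 0.23. In bulk RNA a change in the share of a cell type and a change of RNA per cell cannot be told apart.

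Of the 10 genes, 6 were called higher in MUT pools: Kazald1, Igfbp5, Igfbp6, Igfbp3, Igfbp4 and Igf1r. Their differences ranged from 2.95 for Kazald1 to 0.57 for Igf1r on the log2 scale. In each of the 6 every MUT pool lay above every WT pool, which is part of the same description. Over all tested genes 32.8% were called (26.1% of tested probes), 14.0% higher and 18.8% lower. The pools did not overlap for 52.5% of genes, with MUT above WT for 24.2% and below for 28.3%. No member was called lower. At an unadjusted p under 0.05 there was 1 lower, Igfbp7, and 7 were higher. At that cut 3657 of all 14586 tested genes were lower and 3033 higher. The median difference over the 10 genes was 0.59, and that of all tested genes was -0.02. Because the members were chosen with this comparison known, nothing is read from these counts.

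**Figure D1:**
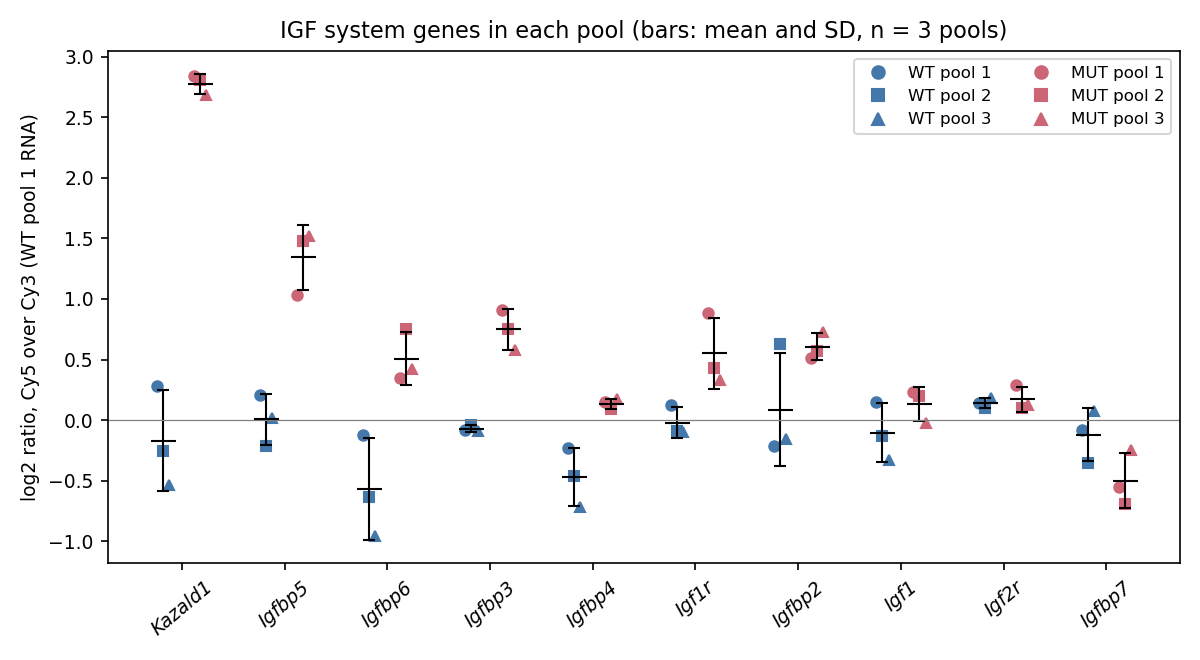
Each symbol is the log2 ratio of 1 pool to WT pool 1 RNA, with the mean and SD of 3 pools as bars, for the 10 genes in order of their difference. The MUT pools of Kazald1 lie between 2.68 and 2.84, those of Igf2r and Igf1 lie among or beside the WT pools, and WT pool 2 of Igfbp2 lies among the MUT pools.

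The ligand gene Igf1 was measured by 4 probes, none of which was called. At its brightest probe the log2 ratios were 0.15, -0.14 and -0.33 in WT pools 1 to 3, against 0.23, 0.20 and -0.03 in MUT pools 1 to 3. The groups overlapped, with a difference of 0.24 ± 0.15 (SE, n = 3 pools per group). The other 3 probes gave differences of -0.12 ± 0.15, -0.14 ± 0.13 and -0.10 ± 0.10 (SE), so the sign of the small difference changed with the probe. The last of these stood well above background on 1 WT array and on all 3 MUT arrays. Averaging the probes of the gene gave -0.03.

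Igf1r, the signalling receptor, was at 0.12, -0.09 and -0.10 in WT pools 1 to 3 and at 0.89, 0.43 and 0.33 in MUT pools 1 to 3. MUT pool 1 was the highest and the groups did not overlap. The difference was 0.57 ± 0.16 (SE), a 1.49-fold higher signal. It was on the other side of the threshold when WT pool 1, WT pool 2, WT pool 3 or MUT pool 2 was left out, with differences of 0.65, 0.54, 0.53 and 0.63.

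Igf2r, the clearance receptor, differed little between pools. Its log2 ratios were 0.14, 0.10 and 0.18 in WT pools 1 to 3, against 0.29, 0.10 and 0.12 in MUT pools 1 to 3. The groups overlapped and the difference was 0.03 ± 0.10 (SE), so the signalling and the clearance receptor gave differences of 0.57 and 0.03 on the same arrays. With each array scaled by its spike-in controls Igf1, Igf2r and Igfbp2 were at 1.21, 1.01 and 1.49. All 3 lay among the members called higher, which then numbered 9. That setting raised the median of all probes by 0.98, and 19178 of 29003 probes were called, 99.0% of them higher. Nothing particular to these 3 genes is read from it.

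Promoters are shown for Kazald1 and for the 4 binding protein genes called higher, since their values lay in the same direction. The sequences are the 250 bases before a RefSeq transcription start in GRCm38.p6, 5′ to 3′ on the gene's strand. All 10 genes matched the promoter table, with 12 start sites. Capitals mark the TATA-like hexamer TATANA where it occurs on the gene's own strand. They also mark the GC box core, which is GGGCGG, on that strand. Kazald1 and Igfbp2 have a second listed start, and the first Kazald1 start is shown.
Kazald1 promoter (chr19:45074991-45075240, strand +): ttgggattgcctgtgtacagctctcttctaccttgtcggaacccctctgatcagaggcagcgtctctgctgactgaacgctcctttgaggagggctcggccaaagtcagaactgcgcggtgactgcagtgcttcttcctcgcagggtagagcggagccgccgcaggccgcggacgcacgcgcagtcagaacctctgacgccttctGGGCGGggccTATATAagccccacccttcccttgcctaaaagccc
Igfbp5 promoter (chr1:72874866-72875115, strand -): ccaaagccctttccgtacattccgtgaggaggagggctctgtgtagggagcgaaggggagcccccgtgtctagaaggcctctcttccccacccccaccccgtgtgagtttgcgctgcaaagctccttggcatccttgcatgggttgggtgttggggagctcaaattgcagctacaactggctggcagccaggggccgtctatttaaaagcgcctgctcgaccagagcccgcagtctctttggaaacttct
Igfbp6 promoter (chr15:102143936-102144185, strand +): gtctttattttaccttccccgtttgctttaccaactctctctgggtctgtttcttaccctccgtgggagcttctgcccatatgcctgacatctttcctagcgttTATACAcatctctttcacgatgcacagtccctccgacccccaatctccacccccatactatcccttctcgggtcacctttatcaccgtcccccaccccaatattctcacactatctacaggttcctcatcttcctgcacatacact
Igfbp3 promoter (chr11:7213924-7214173, strand -): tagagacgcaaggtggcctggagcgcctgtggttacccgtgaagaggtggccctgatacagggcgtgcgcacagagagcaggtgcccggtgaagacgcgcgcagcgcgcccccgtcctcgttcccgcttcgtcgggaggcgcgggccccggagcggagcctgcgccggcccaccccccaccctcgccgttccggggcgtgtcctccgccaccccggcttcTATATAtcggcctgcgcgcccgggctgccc
Igfbp4 promoter (chr11:99040994-99041243, strand +): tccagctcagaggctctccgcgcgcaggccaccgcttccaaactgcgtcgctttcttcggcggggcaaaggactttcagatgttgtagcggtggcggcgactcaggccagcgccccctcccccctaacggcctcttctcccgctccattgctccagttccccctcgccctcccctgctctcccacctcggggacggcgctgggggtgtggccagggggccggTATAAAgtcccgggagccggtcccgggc

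A TATANA hexamer on the gene's own strand began 35, 30 and 28 bases before the start in Kazald1, Igfbp3 and Igfbp4. Among all 32851 promoters, 3.11% had this hexamer beginning 20 to 40 bases before the start, against 3 of the 12 member starts. On either strand and anywhere in the 250 bases it was found in 4 of 12 member starts, including Igfbp6, and in 22.6% of all promoters. GGGCGG on either strand was found in 6 of 12 member starts, those of Igf1r, Igf2r, Igfbp2, Igfbp7 and both of Kazald1, and in 32.7% of all promoters. CCAAT was found in Igf1 and Igfbp6 (33.8% of all promoters) and TGANTCA, an AP-1 element, in Igf1 and Igfbp2 (6.75% of all promoters). The Igfbp5 window held none of these 4 motifs. The base composition of the shown promoters was unlike, with 32 CpG dinucleotides and 73.2% G and C for Igfbp3 but 7 and 49.6% for Igfbp6, where the medians of all promoters were 6 and 52.4%. The motifs were chosen after the sequences had been read, and a match is no more than a description.

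Kazald1 encodes a secreted protein with an IGFBP domain and a Kazal-type domain, and had the largest difference of the group. It was at 0.28, -0.25 and -0.54 in WT pools 1 to 3 and at 2.84, 2.80 and 2.68 in MUT pools 1 to 3. The MUT pools were close together, with an SD of 0.08 against 0.42 in WT pools, and lay far above the WT pools. The difference was 2.95 ± 0.20 (SE), a 7.70-fold higher signal, and ranked 9 from the top among the 14586 tested genes. In the scanner software's processed Cy5 signal the gene stood at 324, 192 and 131 in WT pools 1 to 3 and at 5463, 5392 and 3976 in MUT pools 1 to 3. The Cy3 signal of the same spots, which is WT pool 1 RNA throughout, was 241, 238, 204, 621, 633 and 481 in that order of arrays. Both channels were thus brighter on the MUT arrays, by far more in Cy5. The brighter Cy3 was not particular to Kazald1, since processed Cy3 was higher on every MUT array than on every WT array for each member gene. For Igf2r it was 1603, 1564 and 1399 on the arrays of WT pools 1 to 3. On those of MUT pools 1 to 3 it was 2955, 2957 and 2664.

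Igfbp5, a binding protein that also attaches to extracellular matrix, followed. It was at 0.21, -0.21 and 0.02 in WT pools 1 to 3 and at 1.04, 1.48 and 1.52 in MUT pools 1 to 3. No pools overlapped, and the difference was 1.34 ± 0.17 (SE), or 2.53-fold. Leaving out 1 pool at a time kept it between 1.23 and 1.49.

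Igfbp6, the binding protein that prefers IGF2, was at -0.12, -0.63 and -0.95 in WT pools 1 to 3. In MUT pools 1 to 3 it was at 0.34, 0.76 and 0.42. The WT pools spread more widely (SD 0.42) than the MUT pools (SD 0.22), and WT pools 2 and 3 lay furthest from the MUT pools. The difference was 1.08 ± 0.21 (SE), or 2.11-fold, and was 0.63 against WT pool 1 alone.

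Igfbp3, the main carrier of IGFs in serum, had the tightest WT pools of the group, at -0.08, -0.04 and -0.09. Its MUT pools 1 to 3 were at 0.91, 0.75 and 0.58. The groups did not overlap, with a difference of 0.82 ± 0.11 (SE), or 1.76-fold. Against WT pool 1 alone the difference was 0.83.

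Igfbp4, a binding protein that mostly inhibits IGF action, was at -0.23, -0.46 and -0.72 in WT pools 1 to 3 and at 0.15, 0.09 and 0.17 in MUT pools 1 to 3. The MUT pools lay within an SD of 0.04, and the spread was among the WT pools (SD 0.24). The difference was 0.60 ± 0.13 (SE), or 1.52-fold. Without WT pool 3 it was 0.48 and no longer called.

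Igfbp2, a binding protein of fetal tissues, was not called. It had 2 probes. At the probe with a value on all arrays the log2 ratios were -0.21, 0.63 and -0.15 in WT pools 1 to 3, against 0.52, 0.57 and 0.73 in MUT pools 1 to 3. WT pool 2 thus lay among the MUT pools, apart from the other two WT pools. The difference was 0.52 ± 0.22 (SE), and without WT pool 2 it was 0.79 and called. With any other pool left out it was between 0.37 and 0.57 and not called. At the other probe, where the spot of MUT pool 1 was marked as an outlier and left out of the fit, WT pools were at -0.17, 0.70 and -0.30 and MUT pools 2 and 3 at 0.51 and 0.80. That difference was 0.58 ± 0.30 (SE, n = 3 and 2 pools).

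Igfbp7, a relative with low affinity for IGFs that is known from vessel walls, was the member with a negative difference. It was at -0.08, -0.35 and 0.08 in WT pools 1 to 3 and at -0.56, -0.70 and -0.25 in MUT pools 1 to 3. WT pool 2 lay between MUT pools 1 and 3. The difference was -0.38 ± 0.16 (SE) and was not called. From the deposited log ratios and from the scanner's processed signals, which count as 1 check, it was -0.73, also not called. The probe was dim, with processed Cy5 signals from 19.5 to 62.0, and 2 of the 3 WT arrays and all 3 MUT arrays had it well above background. It was designed to NM_001159518, while RefSeq lists another transcript, NM_008048, and whether the probe reads both was not tested. With each array scaled by its spike-in controls the sign turned, to 0.59, and the gene was not called.

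The binding protein genes lie partly in neighbouring pairs, which did not give equal differences. Igfbp2 and Igfbp5 are neighbours on chromosome 1 among protein-coding genes, and were at 0.52 ± 0.22 and 1.34 ± 0.17 (SE). Igfbp1 and Igfbp3 are neighbours on chromosome 11. Igfbp1, singled out once its value had been seen, was at 0.07, 0.06 and 0.10 in WT pools 1 to 3 and at -0.03, -0.06 and -0.79 in MUT pools 1 to 3. Its difference was -0.37 ± 0.20 (SE, adjusted p = 0.21), against 0.82 ± 0.11 for Igfbp3. The differences within these pairs were not tested.

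The common reference gives a measure of technical spread, since the same RNA was in Cy3 on all 6 arrays. The signals were normalized by loess, and the mean intensities of both channels were then given the same distribution on every array. These steps also use Cy5, so the Cy3 values are not fully free of the comparison of groups. The SD of the Cy3 signal over the arrays was 0.05 for Igf2r, the lowest of the 10 genes at their representing probes. It was 0.22 for Kazald1, the highest, and 0.20 for Igfbp6 and 0.17 for Igfbp3. The median over all tested probes was 0.10 and the 95th percentile 0.21. For Kazald1, Igfbp6, Igfbp3, Igf1r and Igfbp4 the Cy3 signal was higher on every MUT array than on every WT array, by 0.38, 0.31, 0.27, 0.16 and 0.10 on average. Their Cy5 signals differed by 3.33, 1.39, 1.09, 0.73 and 0.70 on the same scale. For Igfbp4 the lowest MUT array was at 10.0541 in Cy3 and the highest WT array at 10.0539. Over all tested probes the absolute Cy3 difference between the 2 sets of arrays had a median of 0.07 and a 95th percentile of 0.22. How many of all probes separated in this way was not counted. The ratio takes the Cy3 difference off, and what raised Cy3 on these arrays was not tested. For Igfbp5 the Cy3 means of the 2 sets of arrays differed by 0.01 and the Cy5 means by 1.34.

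**Figure D2:**
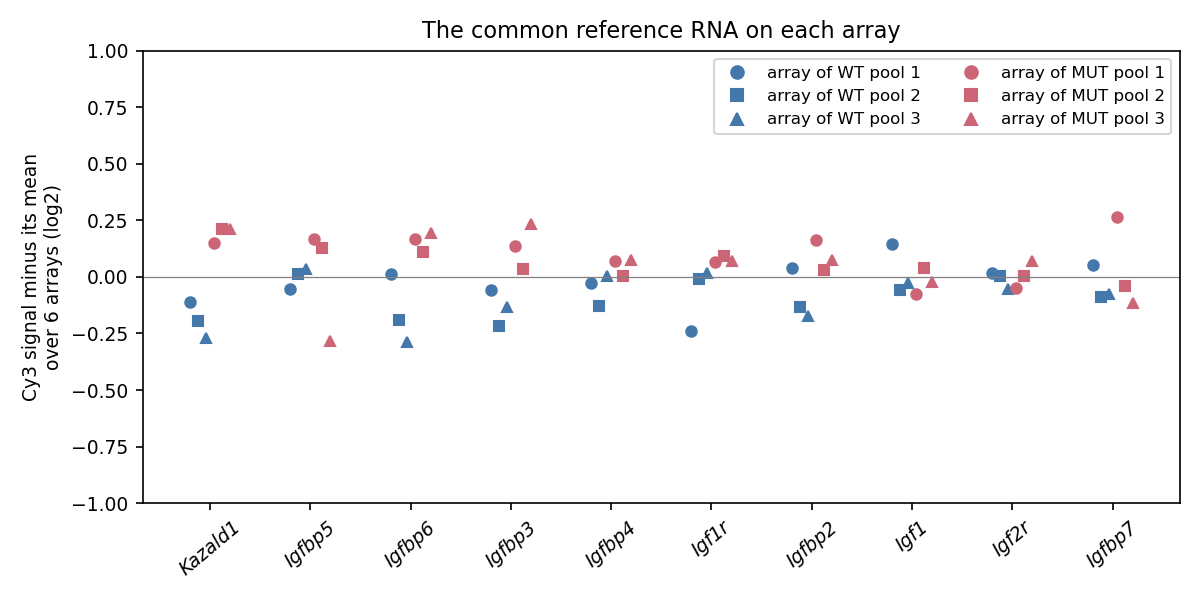
Each symbol is the Cy3 log2 signal of 1 array, minus the mean over the 6 arrays, for the same WT pool 1 RNA. The arrays of MUT pools lie above those of WT pools for Kazald1, Igfbp6, Igfbp3, Igf1r and Igfbp4, and the points of Igf2r span 0.12.

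The row of the slide moved with part of these results. With the row as a covariate, which leaves WT pool 1 as the only WT sample beside the MUT pools, 3 of the 10 genes were called higher. Kazald1 was at 2.49, Igfbp5 at 1.14 and Igfbp3 at 0.83, while Igfbp6, Igf1r and Igfbp4 were at 0.63, 0.43 and 0.37 and no longer called. The number of all probes called fell from 7584 to 2189 with this covariate.

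**Figure D3:**
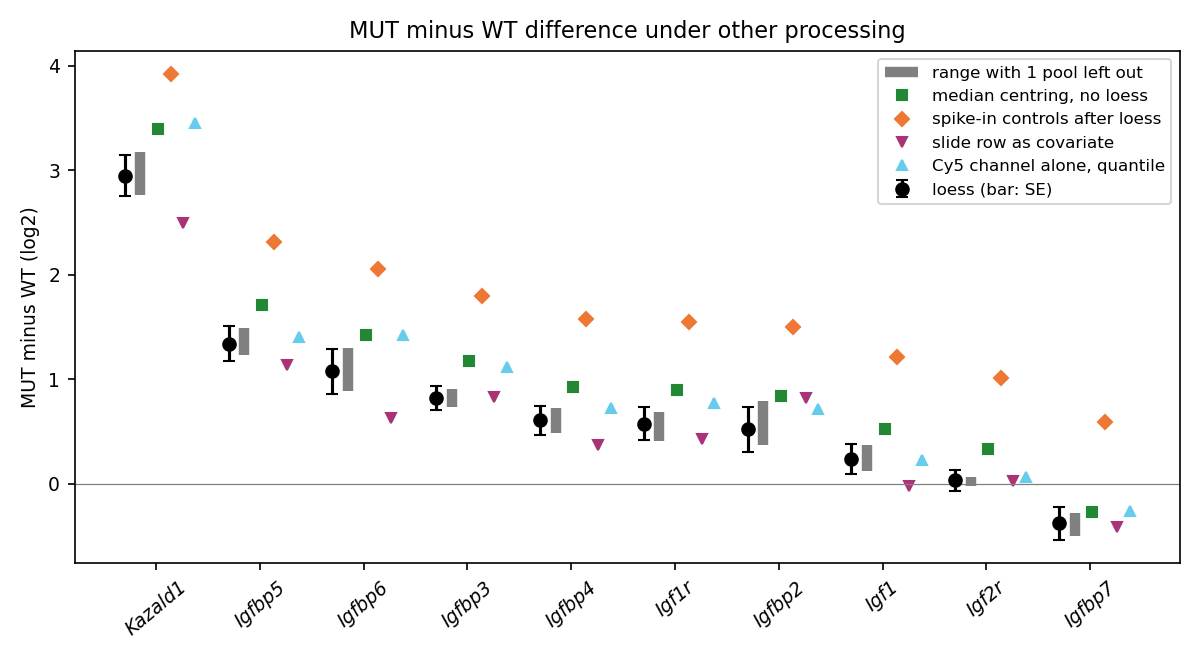
Points are the MUT minus WT differences (log2) of the 10 genes after loess with their SE, with grey bars for the range when 1 pool was left out and other symbols for 4 other settings. Kazald1 lies between 2.49 and 3.92 in all of them, and the spike-in setting lies highest for each gene.

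Other genes of the pathway were listed by their role, with earlier results of these data known. Of 70 such genes 62 were tested, and 5 rose and 10 fell in MUT pools, where 14.0% of all tested genes rose and 18.8% fell. Their median was -0.08, against -0.02 for all tested genes. Proteases of binding proteins and their inhibitors held the largest fall. Pappa2, pappalysin 2, which cuts IGFBP3 and IGFBP5, was at 0.03, -0.14 and 0.36 in WT pools 1 to 3 and at -2.01, -2.15 and -1.72 in MUT pools 1 to 3. It fell by 2.04 on the log2 scale, with an SE of 0.16, a 4.12-fold lower signal (adjusted p = 0.00038). Its other probe fell by 0.65 (SE 0.14, adjusted p = 0.014). That probe stood well above background on all 3 WT arrays and on none of the 3 MUT arrays. Stc1 and Stc2, the stanniocalcins that inhibit pappalysins, fell by 0.84 and 0.51 (SE 0.12 and 0.12, adjusted p = 0.0022 and 0.016). With each array scaled by its spike-in controls they were at 0.14 and 0.47 (SE 0.39 each, adjusted p = 0.74 and 0.26) and not called. The Stc2 call was also lost with median centring, with the slide row, and without WT pool 1 (-0.47), WT pool 3 (-0.50) or MUT pool 2 (-0.43), and the Stc1 call with the slide row. The other 4 genes of this role, Pappa, Htra1, Adamts1 and Adam12, were not called.

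In the ligand and growth hormone arm, Ghr, the growth hormone receptor that drives Igf1 transcription in liver, rose. It was at 0.07, -0.60 and -0.31 in WT pools 1 to 3 and at 1.57, 0.63 and 0.42 in MUT pools 1 to 3. The difference was 1.16 ± 0.30 (SE, adjusted p = 0.026), and 0.48 ± 0.13 (SE, adjusted p = 0.028) at its other probe. The call at the first probe was lost without WT pool 2 or WT pool 3, and with the slide row, where the difference was 0.80. Igf2, the fetal ligand, named after its values were seen, was at 0.01, 0.10 and -0.22 in WT pools 1 to 3. It was at -0.14 in MUT pool 1 but at 1.39 and 1.12 in MUT pools 2 and 3. The difference of 0.83 ± 0.36 (SE, adjusted p = 0.13) was not called. Without MUT pool 1, the MUT pool that lay apart, it was 1.29 and called. With any other pool left out it was between 0.53 and 0.90 and not called. Of the 7 tested genes of this arm none was called lower, also at an unadjusted p under 0.05, where 3 were higher. At that cut 3033 of all 14586 tested genes were higher and 3657 lower. Ins1 was not tested.

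Among receptors of the family, Insrr, the insulin receptor-related receptor, an alkali sensor of intercalated cells, fell by 1.37 with an SE of 0.22 (adjusted p = 0.0036). It was at 0.14, -0.56 and 0.11 in WT pools 1 to 3 and at -1.76, -1.43 and -1.21 in MUT pools 1 to 3. Insr, the insulin receptor, named after its values were seen, was at -0.23 ± 0.18 (SE, adjusted p = 0.39), with MUT pool 1 at -0.70 and the other MUT pools at -0.05 and -0.07. Its other 2 tested probes gave -0.08 and -0.42. Of other proteins with an IGFBP domain, Ccn4, a matricellular Wnt target, rose by 1.36 ± 0.15 (SE, adjusted p = 0.00087), and by 0.87 at its other probe. Esm1, an endothelial proteoglycan, fell by 1.15 with an SE of 0.12 (adjusted p = 0.00065). Ccn3, Ccn5, Ccn6 and Htra4 were not tested, nor was Igfals, the acid-labile subunit of serum IGF complexes.

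Of 9 tested adaptors, Shc1 and Gab1, which link receptors to the MAPK and PI3K pathways, rose by 0.66 ± 0.15 (SE, adjusted p = 0.014) and 0.48 ± 0.11 (SE, adjusted p = 0.015). Both calls were lost without WT pool 3, and with the slide row, where the differences were 0.64 and 0.37. Grb14, an inhibitor of insulin receptor signalling, fell by 0.93 with an SE of 0.11 (adjusted p = 0.0012). Irs1 and Irs2, the substrates of both receptors, were tested and not called, and Irs4 was not tested. In the PI3K, AKT and FoxO group 3 of 13 tested genes fell. The regulatory subunits Pik3r3 and Pik3r1 fell by 0.67 and 0.65 (SE 0.14 and 0.18, adjusted p = 0.0097 and 0.029), and the catalytic subunit Pik3cb by 0.56 (SE 0.12, adjusted p = 0.012). The Pik3r1 call was lost with the deposited log ratios and with the processed signals, which both gave -0.68 and count as 1 check. It was also lost with Cy5 alone, median centring and the slide row, and without WT pool 1 (-0.59), WT pool 3 (-0.57) or MUT pool 2 (-0.69). Calls of Pik3r3 and Pik3cb were lost with median centring, with the slide row and without WT pool 3 (-0.61 and -0.55), and that of Pik3cb also without WT pool 1 (-0.50). Foxo3 was not tested. None of the 8 mTOR genes was called by limma, and none had an unadjusted p under 0.05. Hras, a small GTPase upstream of MAPK, was the member of its group of 8 that was called, and fell by 0.79 with an SE of 0.10 (adjusted p = 0.0015).

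The differences of Grb14, Hras, Pik3r3, Pik3r1 and Pik3cb also had a positive sign with the spike-in controls. They were at 0.044, 0.19, 0.31, 0.32 and 0.42 (SE 0.39 each), and none was called (adjusted p from 0.31 to 0.92). In that setting Pappa2 was at -1.07 and kept its call, while Insrr and Esm1 were at -0.39 and -0.17 (adjusted p = 0.35 and 0.68) and lost theirs. The Hras call was lost with median centring as well. Without WT pool 3 the pathway counts were 2 that rose and 6 that fell.

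**Figure D4:**
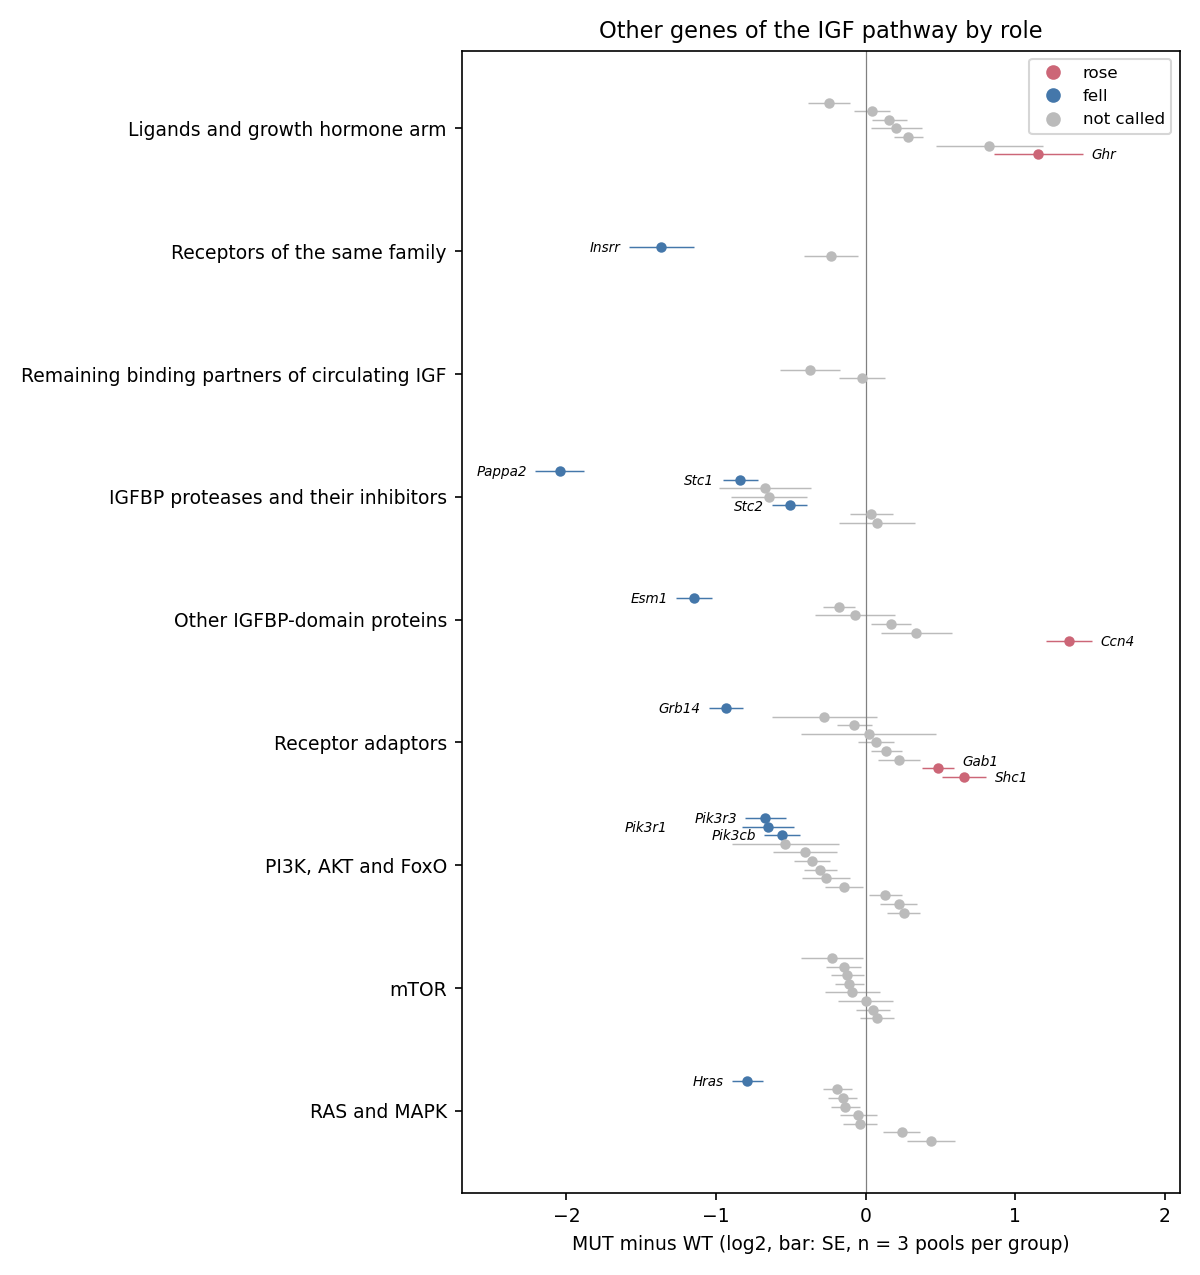
Each point is the MUT minus WT difference (log2) of 1 tested gene of the pathway with its SE, in rows by role, coloured where the gene passed the test. A gene that is not reported here is not drawn. Pappa2 lies furthest to the left at -2.04, Ccn4 furthest to the right at 1.36, and the mTOR genes lie between -0.23 and 0.07.

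Markers of other kidney cells moved beside the IGF genes. Of renal stroma markers 11 of 14 rose and none fell, with list medians of 0.12, -0.70 and -0.85 in WT pools 1 to 3 and of 1.37, 1.35 and 1.30 in MUT pools 1 to 3. Meis1 and Aldh1a2, which mark this tissue, rose by 2.94 and 1.68. Of nephron progenitor markers 9 of 10 rose, Tmem100 and Uncx by 2.43 and 1.70 (Tmem100 stood well above background on 1 WT array and on all 3 MUT arrays), with medians of 0.14, 0.04 and -0.05 in WT pools and of 2.19, 2.07 and 1.33 in MUT pools. Mural and smooth muscle markers rose in 2 of 7 cases, Rgs5 by 1.24 and Acta2 by 0.80, and leukocyte markers in 8 of 10, with Cx3cr1 at 1.36 and Cd52 at 1.26. In that list Ptprc, which encodes the pan-leukocyte antigen CD45 and is named after its value was seen, fell by 0.43 (SE 0.11, adjusted p = 0.021). No tested marker of these 4 lists was below background on all arrays. Over the 10 IGF genes the medians were 0.02, -0.17 and -0.13 in WT pools and 0.43, 0.50 and 0.38 in MUT pools. WT pools 2 and 3 were below WT pool 1 for Kazald1, Igfbp4, Igfbp5, Igfbp6, Igf1 and Igf1r, and for the stroma list median. The medians of the mural, leukocyte, nephron progenitor, podocyte and proximal tubule lists had the same order, so it was not particular to stroma. How many of all genes had this order was not counted. The part of these cell types in the values of the IGF genes was not tested.

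Markers of epithelial segments went the other way. All 9 tested markers of principal cells, all 10 of intercalated cells and all 9 of the list for Henle's loop and the distal tubule fell. Aqp3 and Aqp4 were at -1.90 and -2.04, Slc4a9 and Dmrt2 at -2.50 and -2.43, and Cldn10 and Irx1 at -2.21 and -1.60. Of the ureteric trunk, Mal and Krt7 fell by 2.49 and 2.06. Endothelial markers fell in 10 of 12 cases, Sox17 by 1.08 and Egfl7 by 1.02, beside Esm1 and the negative difference of Igfbp7. Proximal tubule markers fell in 4 of 9 cases (Aqp1 by 1.10, Kap by 1.47), and 1 of 9 ureteric tip markers fell (Wnt9b by 0.97, with Etv4 at 0.54 and not called). The 7 podocyte markers had a median difference of 0.16, none fell, and Ptpro was at 0.85 and not called. WT pool 2, in which Igfbp2 was high, had a ureteric tip median of 0.87, against -0.07 and 0.15 in WT pools 1 and 3. Whether the tip or endothelial lists bear on the values of Igfbp2, Esm1 or Igfbp7 was not tested.

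**Figure D5:**
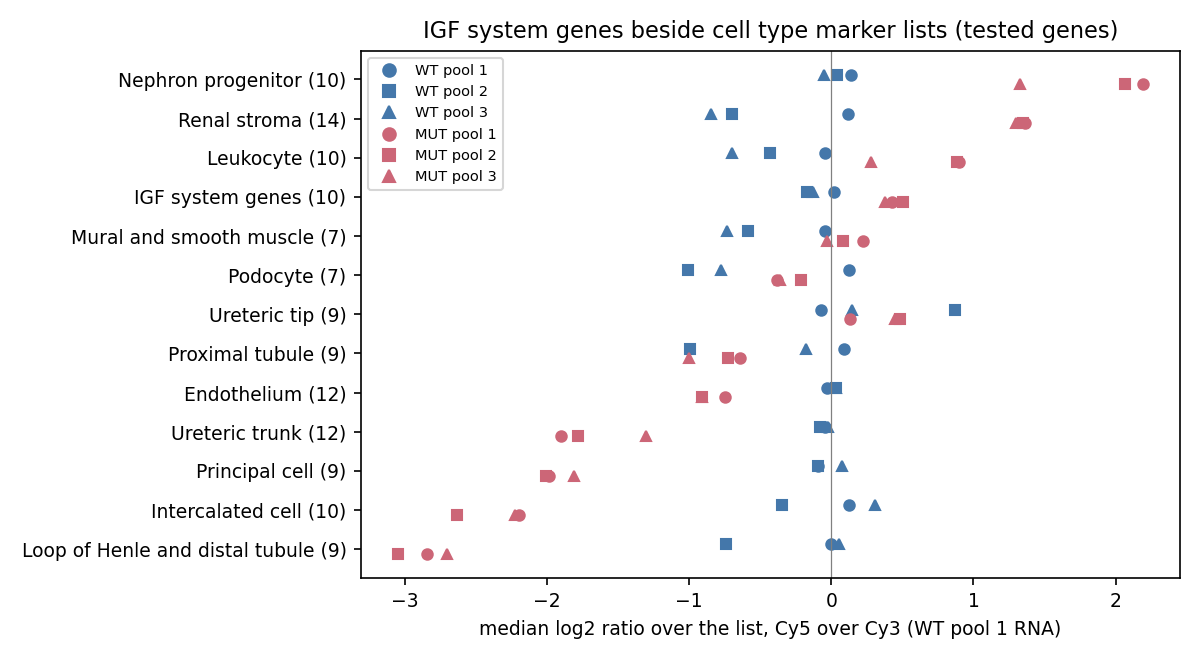
Each symbol is the median log2 ratio of 1 pool over the tested genes of a list, with the number of genes in brackets. The 10 IGF genes have MUT pools at 0.38 to 0.50 and WT pools at -0.17 to 0.02, and nephron progenitor and stroma lists lie higher in MUT pools.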

How the data were processed

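RNA of 3 WT and 3 MUT pools was measured on 6 two-colour oligonucleotide arrays on 1 slide. Scanning software was Agilent Feature Extraction 10.7.3.1 (submitters' processing notes). The deposited scanner files hold spot intensity per channel as median signal and median local background, and a log10 ratio of Cy5 over Cy3. The deposited value table holds that log10 ratio, rounded (largest difference 0.00499), with medians of 0.

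Background was corrected by normexp (offset 50), which understates folds of dim probes, and log2 ratios were normalized by loess within arrays with controls at weight 0. Control spots and 1537 outlier spots were left out, and replicate spots were averaged per probe. The test took probes whose Cy5 signal stood well above background on every array of at least 1 group. MUT was compared with WT by limma 3.58.1 in R 4.3.3 (lmFit and eBayes, 3 against 3 pools, Benjamini-Hochberg over 29003 probes, called at adjusted p under 0.05); 63 probes lacked an array. The labels call the pools biological replicates. A gene is represented by its brightest tested probe with values on all 6 arrays. Probes were named by unversioned accession through a RefSeq table of GRCm38.p6 (27509 probes), which also gave the promoter sequences. Figures used matplotlib 3.10.9. Same-numbered pools were not treated as pairs, since their deviations correlated by 0.14, 0.07 and 0.20. The pipeline was tested on simulated data.

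Members, the pathway list and marker lists were chosen with earlier results of these data known. Named are all members, called and untested pathway genes, and 2 genes per marker list with the smallest p, apart from items that are not reported here. Alternatives covered background, normalization, spike-in scaling, filter, probe choice, channel, pool and slide row as covariates, eBayes settings and each pool left out.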

Additional observations from a re-analysis of the deposited data

How the results depend on the processing

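Over all probes 7584 were called, 2189 with the slide row as a covariate, 19178 with the spike-in controls, and 3831 to 9536 with 1 pool left out (3831 without WT pool 3, 4890 without WT pool 1). Members called higher numbered 6, 3 with the slide row, 9 with the spike-in controls, 7 with median centring or Cy5 alone, and 4 to 6 with 1 pool left out (4 without WT pool 3), and their median of 0.59 became 0.91 with median centring and 1.56 with the spike-in controls. With the replicate block (pool number) 6 members rose and 1 fell, Igfbp7, and 7243 probes were called. Pathway genes that rose numbered 5, but 1 with the slide row, 35 with the spike-in controls and 2 to 8 with 1 pool left out (2 without WT pool 3, 8 without MUT pool 1). Those that fell numbered 10, but 5 with median centring, 6 with the slide row, 1 with the spike-in controls and 6 to 11 with 1 pool left out. Marker genes that rose numbered 31, but 10 with the slide row and 50 with the spike-in controls, and those that fell 56, but 26 with the latter. With the spike-in controls 7 called pathway genes changed sign: Grb14 to 0.044, Hras to 0.19, Pik3cb to 0.42, Pik3r1 to 0.32, Pik3r3 to 0.31, Stc1 to 0.14 and Stc2 to 0.47. None of the 7 was called in that setting, where the SE was 0.39 for each. Of the uncalled genes named, Igfbp1 and Insr went to 0.60 and 0.75. The spike-in setting adds 0.98 to the median probe by construction. The cause of the other changes was not tested. Igfbp2 was called higher with median centring, with the Cy5 channel alone and without WT pool 2.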
